A study of Homo sapiens with 9 samples.

Results

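T47D-PA5 was compared with T47D-VC1 across all genes on a microarray. T47D is an established human breast cancer cell line of luminal type that expresses the estrogen and progesterone receptors. T47D-PA5 is a stable line that carries the PA5 fragment, an incomplete form of the antisense transcript PTH-AS that lacks part of its 5′ end, in the pTARGET expression vector. T47D-VC1 is the control line with the vector alone. The comparison takes the arrays titled as T47D-PA5 clone 8_4 and as T47D-VC1, with 3 arrays for each line, 6 of the 9 in the series. The other 3 are of T47D-PA6, clone 3_1, which carries the full-length transcript, and they enter here for the shared estimate of spread and for side-by-side values. All lines went through lipofection and G418 selection, and each stands for a single selected line. A difference between lines therefore cannot be told apart from a difference between the cells from which each line grew. The labels do not say that the replicates are separate cultures, so p-values measure only the spread between these arrays. No probe is named for PTH-AS, and the presence of the PA5 transcript was not tested here. The probe for PTH itself stayed at background in all 3 lines.

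Interferons are secreted signals of virus infection. Their receptors activate a complex of STAT proteins with IRF9, which binds the interferon-stimulated response element in promoters and switches on antiviral effector genes such as the OAS, MX and IFIT families. The same genes can be switched on from inside a cell when sensors bind double-stranded RNA or misplaced DNA. In breast cancer cells, luminal identity rests on another set of factors, among them ESR1, FOXA1 and GATA3. The genes of these pathways were listed and followed in T47D-PA5 beside the genes that differed most.

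Each array held 58201 probes, of which 44.0% to 47% were well above background on the 6 arrays, and no spot was saturated. The values are intensities in arbitrary units that the authors had quantile-normalized between arrays, and all tests were made on their log2 scale. Signals are given per array in the order replicate 1, replicate 2, replicate 3. Slides were told apart here only by the scan times in the scanner files, so the slide of an array is inferred. By these times, slide 1 held replicate 1 of each line and was scanned earlier. Slides 2 and 3 held replicates 2 and 3 of T47D-VC1 and T47D-PA5. The median absolute log2 difference between replicates 2 and 3 was 0.107 in T47D-VC1 and 0.0839 in T47D-PA5, and replicate 1 differed from them by 0.207 to 0.265. All 15 luminal identity markers were tested in T47D-PA5 and 0 of them were called. KRT8 was at 19294 to 26735 in T47D-VC1 and at 24507 to 33014 in T47D-PA5, and ESR1 was at 2368 to 3690 and at 2561 to 3071. Of 10 fibroblast, 8 basal and 8 endothelial markers, 7, 6 and 6 were at background on all T47D-VC1 arrays, and 6, 4 and 6 on all T47D-PA5 arrays, among them DCN, KRT5, TP63 and PECAM1 in both lines. KRT14, KRT17 and PDGFRB were each well above background on 1 T47D-PA5 array, at up to 33.1, 27.9 and 19.3. Of 8 leukocyte markers on the array, 4 were tested and 0 called, with CD14 at 41.2 to 56.2 in T47D-VC1 and at 97.4 to 128 in T47D-PA5 (limma adjusted p = 0.0728). The summed signal of the fibroblast list was 898 to 1283 in T47D-VC1 and 1451 to 1740 in T47D-PA5. ACTA2, THY1 and COL1A1 were above background in both lines. COL1A1 did not share the rise, at 326 to 366 in T47D-VC1 and at 290 to 327 in T47D-PA5.

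Of 19819 genes tested, 280 were called higher in T47D-PA5 than in T47D-VC1 and 61 were called lower, at an adjusted p-value under 0.05 in limma. The calls are 1.41% and 0.308% of the genes tested. By the definition in the methods, a ratio of line means over 2 or under 0.6 with no test, 404 genes (2.04%) were upregulated and 326 genes (1.64%) were downregulated. Of these, 167 upregulated and 51 downregulated genes were also called. The groups did not overlap for any called gene. Among all 19819 genes tested, 2213 were higher in T47D-PA5 without overlap and 2433 were lower without overlap. With the replicate number as a block, 397 genes (2%) were called higher and 111 (0.56%) lower, and 288 of the 341 genes called without the block were called again with the same sign. The count of higher genes fell to 87 without T47D-PA5 replicate 2, 72 without T47D-PA5 replicate 3, 126 without T47D-VC1 replicate 2 and 80 without T47D-VC1 replicate 3. The count of lower genes under the same omissions was 30, 24, 35 and 20. Leaving out T47D-PA5 replicate 1 raised it to 99.

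The 12 genes with the largest rise fall into antiviral effectors and genes of other kinds. PHYHD1, a dioxygenase related to the peroxisomal enzyme of phytanic acid breakdown, was at 2.90, 2.88 and 2.87 in T47D-VC1 and at 111, 111 and 106 in T47D-PA5. The lines did not overlap, and all T47D-VC1 values were at background. T47D-PA5 was at least 8.69-fold higher, a bound because the T47D-VC1 signal was not above background (limma adjusted p = 0.00217). GAGE1, a cancer-testis antigen gene that normal tissues other than germ cells keep silent, was at 2.88, 2.86 and 2.86 in T47D-VC1 and at 119, 97.2 and 93.9 in T47D-PA5. It was at least 8.18-fold higher (limma adjusted p = 2.14e-07), and in T47D-PA6 its mean signal was 2.86. GAGE genes are near-identical copies, so the probe may read several of them. It did not read all of them, since the probe of GAGE12F was at 38206, 43981 and 43689 in T47D-VC1. STC1, which encodes the secreted hormone stanniocalcin, was at 4.90, 2.49 and 4.16 in T47D-VC1 and at 117, 78.5 and 99.1 in T47D-PA5, at least 7.71-fold higher (limma adjusted p = 0.000237). The mean of STC1 in T47D-PA6 was 43.2, which was also called above T47D-VC1 (limma adjusted p = 0.000519). BCHE, the serum cholinesterase, was at 14.1, 8.86 and 10.8 in T47D-VC1 and at 193, 254 and 254 in T47D-PA5, at least 17.8-fold higher (limma adjusted p = 0.00204).

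The remaining rises outside the antiviral group were in lnc-WARS2-2, C1GALT1C1L and ANGPT1. The long noncoding RNA lnc-WARS2-2 was at 2.64, 2.66 and 2.70 in T47D-VC1 and at 48.8, 38.2 and 42.6 in T47D-PA5, at least 3.42-fold higher. C1GALT1C1L was at 2.89, 2.96 and 2.93 in T47D-VC1 and at 28.7, 52.7 and 45.9 in T47D-PA5, at least 3.27-fold higher. ANGPT1, a ligand of the endothelial receptor TEK, was at 7.25, 11.9 and 6.82 in T47D-VC1 and at 78.2, 90.9 and 91.8 in T47D-PA5, at least 6.90-fold higher. In each of these genes every T47D-PA5 array lay above every T47D-VC1 array, and T47D-VC1 was not well above background. T47D-PA6 was also called above T47D-VC1 in each, with means of 19.8 for lnc-WARS2-2, 98.5 for C1GALT1C1L and 225 for ANGPT1. PHYHD1, GAGE1, STC1, BCHE, lnc-WARS2-2, C1GALT1C1L and ANGPT1 were called without any 1 of the 6 arrays, with the highest limma adjusted p at 0.0461 for ANGPT1.

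**Figure D1:**
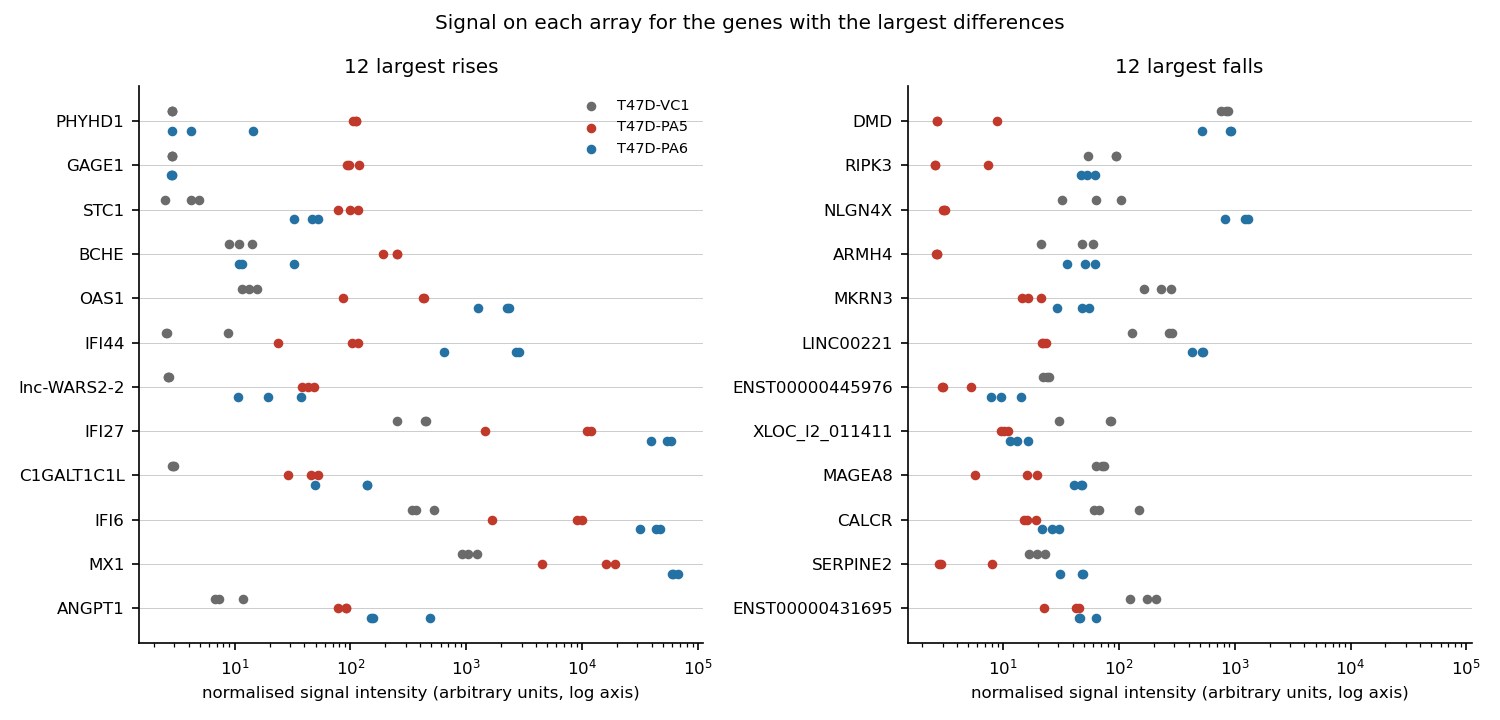
Normalised signal of the 12 genes with the largest rise (left) and the 12 with the largest fall (right) in T47D-PA5, on a log axis, with 1 point for each array of T47D-VC1 (grey), T47D-PA5 (red) and T47D-PA6 (blue). The red points do not overlap the grey ones for any of the 24 genes, and DMD drops from 762 to 871 in T47D-VC1 to 2.66 to 8.93 in T47D-PA5.

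The largest fall was in DMD, which encodes dystrophin. Its probe (hg19 chrX:31137349-31137408) read 762, 871 and 844 in T47D-VC1 and 2.68, 2.66 and 8.93 in T47D-PA5, where every value was at background. T47D-PA5 was at least 63.1-fold lower (limma adjusted p = 0.000237). A second probe of the gene (hg19 chrX:31152220-31152279) read 132, 176 and 166 in T47D-VC1 and 2.63, 7.37 and 2.66 in T47D-PA5. The other DMD probes were at 2.77 to 3.64 in T47D-VC1, near the floor of the array in every line. In T47D-PA6 the first probe read 520, 905 and 920, so the loss separated T47D-PA5 from both other lines. The difference between T47D-PA5 and T47D-PA6 was -7.57 on the log2 scale (limma adjusted p = 0.00016).

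RIPK3, a kinase of programmed necrosis that acts downstream of death receptors and of some nucleic acid sensors, was at 53.6, 95 and 93.9 in T47D-VC1 and at 2.56, 7.47 and 2.56 in T47D-PA5, at least 5.98-fold lower (limma adjusted p = 0.00224). NLGN4X, a synaptic adhesion protein, was at 32.4, 104 and 63.3 in T47D-VC1 and at 3.14, 3.05 and 3.0 in T47D-PA5, at least 4.57-fold lower, whereas its mean in T47D-PA6 was 1099. ARMH4, which encodes a membrane protein, was at 21.2, 59.3 and 47.6 in T47D-VC1 and at 2.65, 2.66 and 2.67 in T47D-PA5, at least 2.99-fold lower. These genes, like DMD, sat at the floor of the array in T47D-PA5 and not in T47D-PA6, whose means were 53.4 for RIPK3 and 48.4 for ARMH4. MKRN3, an imprinted gene that restrains the onset of puberty, fell from 164, 231 and 283 to 14.6, 21.4 and 16.4, a log2 difference of -3.68 (SE 0.281, limma adjusted p = 0.000914). LINC00221, a noncoding RNA, fell from 130, 287 and 269 to 23.2, 21.5 and 21.9, a log2 difference of -3.28 (SE 0.272, limma adjusted p = 0.00135). Another LINC00221 probe fell from 133, 309 and 261 to 7.06, 19.7 and 16.3.

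CALCR, the calcitonin receptor, fell from 148, 67.4 and 61.1 in T47D-VC1 to 15.2, 16.2 and 19.3 in T47D-PA5 (limma adjusted p = 0.0103), and its mean in T47D-PA6 was 26.0. MAGEA8, a cancer-testis antigen gene, fell from 63.4, 74.7 and 72.0 to 19.6, 5.72 and 16 (limma adjusted p = 0.0196). SERPINE2, a secreted protease inhibitor, was at 19.8, 16.6 and 23.1 in T47D-VC1 and at 7.98, 2.79 and 2.89 in T47D-PA5, at least 1.5-fold lower (limma adjusted p = 0.0277). The transcripts ENST00000445976, XLOC_l2_011411 and ENST00000431695 completed the 12 largest falls, with log2 differences of -2.72, -2.55 and -2.25. SERPINE2 was called in 1 of the 6 fits that left out an array, XLOC_l2_011411 and MAGEA8 in 3, and CALCR and ENST00000431695 in 5. The other 7 of the 12 were called in all 6.

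The list with the most calls was that of the antiviral effectors. Of 47 on the list, 39 were tested, 20 were called higher and 0 lower, against 1.41% of all genes called higher. The median log2 difference of the 39 was 1.39, and that of all genes tested was -0.03. MX1, a GTPase that traps viral particles, was at 921, 1230 and 1044 in T47D-VC1 and at 4527, 19389 and 16058 in T47D-PA5, a log2 difference of 3.41 (SE 0.466, limma adjusted p = 0.0115). OAS1, which makes a second messenger when it binds double-stranded RNA, was at 11.7, 15.7 and 13.2 in T47D-VC1 and at 85.5, 432 and 425 in T47D-PA5, a log2 difference of 4.22 (SE 0.577, limma adjusted p = 0.0115). Its probe was well above background on 1 of the 3 T47D-VC1 arrays, so the size of that difference rests on signals near background. IFI27, a mitochondrial protein, was at 437, 450 and 254 in T47D-VC1 and at 1448, 12019 and 11022 in T47D-PA5, a log2 difference of 3.97 (SE 0.721, limma adjusted p = 0.0355). In all of these genes the lines did not overlap, and replicate 1 of T47D-PA5 lay between T47D-VC1 and the other T47D-PA5 arrays.

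IFI6, an inhibitor of virus replication at the endoplasmic reticulum, was at 340, 530 and 371 in T47D-VC1 and at 1673, 9921 and 9020 in T47D-PA5, a log2 difference of 3.71 (SE 0.604, limma adjusted p = 0.0233). IFI44, a cytoplasmic protein induced by virus infection, was at 8.71, 2.59 and 2.57 in T47D-VC1 and at 23.6, 116 and 103 in T47D-PA5. T47D-VC1 was not well above background there, so T47D-PA5 was at least 5.21-fold higher, and the limma adjusted p of 0.049 became 0.0645 with the replicate block. ISG15, a ubiquitin-like modifier, was at 1099, 621 and 516 in T47D-VC1 and at 3001, 9074 and 8253 in T47D-PA5, a log2 difference of 3.11. USP18, the protease that removes ISG15 from proteins, was at 478, 483 and 464 and at 673, 863 and 784, a log2 difference of 0.70. The modifier and its protease thus rose by unlike amounts. IFIT1, IFIT3 and IFIT5, which bind foreign RNA, rose by 3.06, 2.73 and 1.99 on the log2 scale, and OAS3, of the same enzyme family as OAS1, by 1.56. EIF2AK2, the kinase PKR that halts translation on double-stranded RNA, was at 894, 972 and 918 in T47D-VC1 and at 1421, 2149 and 2292 in T47D-PA5, a log2 difference of 1.04.

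IFI6, IFI27, IFI44, OAS1 and MX1 are named for their size, and the other effectors after their values were seen. The remaining called effectors were CMPK2, LAMP3, SAMD9L, PARP14, PLSCR1, DTX3L, SP110 and PARP12, with log2 differences of 2.63 down to 0.62. CMPK2, like OAS1, was well above background on 1 T47D-VC1 array, and PARP12 and SP110 were no longer called with the replicate block (limma adjusted p = 0.0555 and 0.0622). LAMP3, a lysosomal membrane protein, was the steadiest of these in T47D-PA5, at 202, 204 and 202 on its arrays and at 59.4, 42.8 and 36.2 in T47D-VC1. The 19 effectors that were not called had log2 differences of -0.36 to 2.29. In 14 of them every T47D-PA5 array lay above every T47D-VC1 array, against 2213 of all 19819 genes tested. MX2, the sister gene of MX1, was at 178, 274 and 257 in T47D-VC1 and at 160, 245 and 224 in T47D-PA5 (limma adjusted p = 0.755).

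**Figure D2:**
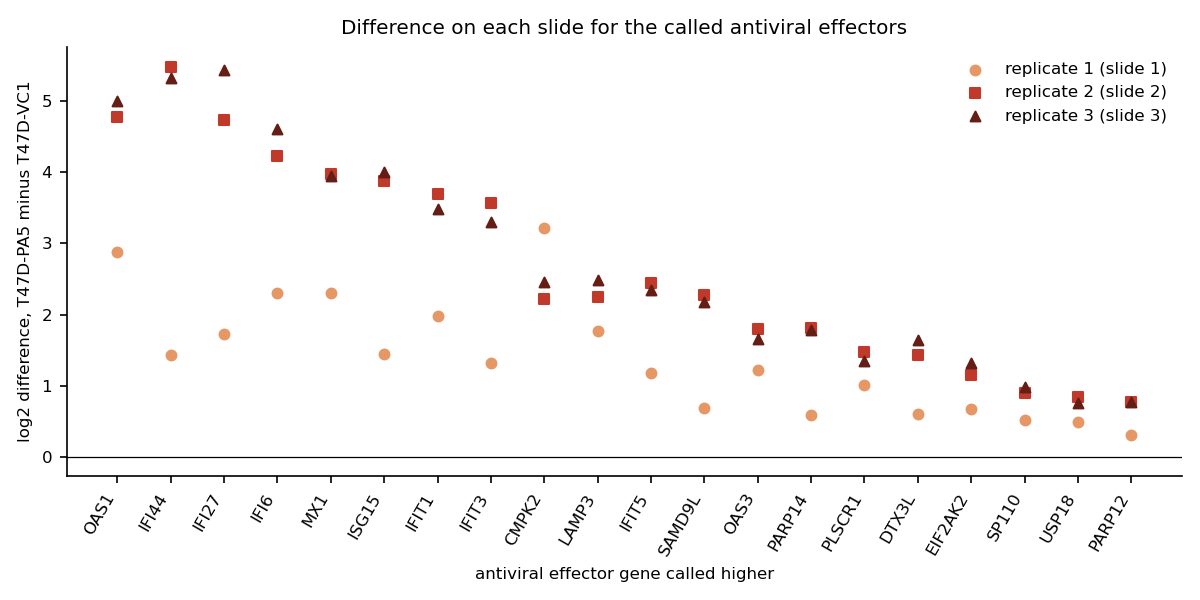
Log2 difference of T47D-PA5 minus T47D-VC1 on each slide for the 20 antiviral effectors called higher, with a circle for replicate 1, a square for replicate 2 and a triangle for replicate 3. All points lie above 0, and in 19 of the 20 genes the circle is the lowest of the 3.

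The size of the response differed between arrays. The median log2 difference over the 39 effectors was 0.67 on slide 1, 1.80 on slide 2 and 1.66 on slide 3, and T47D-PA5 replicate 1 was the lowest T47D-PA5 array for all 20 called effectors. The earlier run held 1 array of each line and the later run held 2. The spread within the earlier run is therefore unknown, and no test of a difference between the runs is reported. The slide, the run and the state of the cells in replicate 1 cannot be told apart. With replicates 2 and 3 alone, 35 of the 39 were called higher. Leaving out T47D-PA5 replicate 1 gave 30, and leaving out T47D-VC1 replicate 1 gave 14. The count was 4 without T47D-PA5 replicate 2 or T47D-VC1 replicate 2, and 0 without T47D-PA5 replicate 3 or T47D-VC1 replicate 3. Of the 5 effectors among the largest rises, OAS1 and MX1 were no longer called without replicate 3 of either line, IFI44 was called in 2 of the 6 fits, and IFI27 and IFI6 in 1. The median over the list was 1.18 to 1.63 in the fits that left out an array.

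The values in T47D-PA5 were intermediate. The mean of T47D-PA5 was below that of T47D-PA6 for 38 of the 39 effectors, and the difference was called for 33 of them, against 3.31% of all genes called lower in T47D-PA5 than in T47D-PA6. MX1 had a mean of 1058 in T47D-VC1, against 11212 for T47D-PA5 and 62454 for T47D-PA6. For OAS1 the means were 13.4, 250 and 1881, and for LAMP3 the log2 difference between T47D-PA5 and T47D-PA6 was -3.28 (limma adjusted p = 0.00136). T47D-VC1, T47D-PA5 and T47D-PA6 thus stood in the same ascending order for all 3 genes, with each step called. Both lines were set against the same T47D-VC1 arrays.

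The promoters of the called effectors were searched for the core of the interferon-stimulated response element, which is GAAA, any 2 bases and GAAA again, or TTTC, any 2 bases and TTTC where it lies on the other strand. The promoter sequences are those of RefSeq on GRCh38.p14, from 250 bases before to 50 bases after the start of each gene. Of the 20 called effectors, 18 had a promoter in the table and 14 held the core, whereas 330 of 11717 genes tested held it (2.82%). Among all 27305 promoters of the table the share was 3.65%. Of the 158 other genes called higher that had a promoter there, 1 held the core, DDO, and of 30 called lower, 2 did, GNG11 and SUPT3H. CMPK2, OAS1, SAMD9L and SP110 did not hold these letters in the window. A match is a description of the letters, and binding was not measured. The effector list was chosen as interferon-stimulated genes, so its share against all genes describes the list and is no test of these data. The share among the effectors that were not called was not computed. The stretches shown are those of 5 effectors with large rises, each 30 bases long, 5′ to 3′ on the strand of the gene, with the core in capitals. They lie at chr1:78649759-78649788 (IFI44, plus strand), chr14:94110618-94110647 (IFI27, plus strand), chr1:27672329-27672358 (IFI6, minus strand), chr1:1013374-1013403 (ISG15, plus strand) and chr10:89392510-89392539 (IFIT1, plus strand). IFI27, IFI6, ISG15 and IFIT1 hold the core at more than 1 place in the window, and 1 place is in capitals for each. The ISG15 stretch also holds its other core, which overlaps the end of the capitals. The core shown begins 18, 108, 156, 113 and 103 bases before the start of the gene.
IFI44: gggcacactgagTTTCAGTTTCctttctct
IFI27: atgtctgcagTTTCGGTTTCctggaaaatg
IFI6: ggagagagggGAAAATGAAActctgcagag
ISG15: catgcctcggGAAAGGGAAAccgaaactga
IFIT1: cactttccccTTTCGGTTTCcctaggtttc

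Among 21 genes of interferon signalling, 4 were called higher and 0 lower, and the median log2 difference was 0.20. IRF9, the DNA-binding part of the complex that reads the response element, was at 183, 222 and 181 in T47D-VC1 and at 489, 983 and 952 in T47D-PA5, a log2 difference of 1.99 (SE 0.253, limma adjusted p = 0.00826). It was called without any 1 of the 6 arrays, and its second, dimmer probe moved the same way, from 2.89, 8.34 and 7.10 to 19.5, 31.0 and 34.2. IRF7, the factor that amplifies interferon production, was at 1677, 1366 and 1261 in T47D-VC1 and at 2518, 5504 and 5040 in T47D-PA5, a log2 difference of 1.53 (SE 0.272, limma adjusted p = 0.0315). IFNAR2, a chain of the type I receptor, was at 100, 106.8 and 115 in T47D-VC1 and at 176, 150 and 167 in T47D-PA5, a log2 difference of 0.62 (limma adjusted p = 0.0491, or 0.0693 with the replicate block). IRF7 was called in 2 of the 6 fits that left out an array and IFNAR2 in 0. USP18 was the fourth called gene and is also an effector above. JAK1, the kinase of the receptor, was at 1112, 1221 and 1197 in T47D-VC1 and at 872, 1241 and 1199 in T47D-PA5, a difference that was not called. JAK1 is named after its values were seen.

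Interferon ligands were mostly undetected. Of 9 ligand genes on the array, 8 stayed at background in T47D-VC1 and 7 in T47D-PA5. The ligand that could be tested, IFNL2 of the lambda family, was at 30.8, 24.4 and 28.4 in T47D-VC1 and at 44.8, 63.5 and 48.6 in T47D-PA5, without overlap but not called (limma adjusted p = 0.107). The lambda genes are near-identical, so the probe may read more than 1 of them. Among 20 genes of MHC class I and antigen processing, 18 had a log2 difference above 0, against 45.2% of all genes tested. The median of the 20 was 0.42, and 1 gene was called. It was PSMB9, a catalytic subunit of the immunoproteasome, at 435, 428 and 378 in T47D-VC1 and at 831, 1106 and 979 in T47D-PA5 (log2 difference 1.22, SE 0.172, limma adjusted p = 0.0133). Of 12 chemokines and cytokines tested, 0 were called in limma, with CCL5 at 10.5, 19.7 and 8.96 in T47D-VC1 and at 32.7, 85.7 and 71.5 in T47D-PA5 (limma adjusted p = 0.0574, or 0.017 with the replicate block).

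Of 14 nucleic acid sensors and adaptors, 2 were called higher. ADAR, which edits double-stranded RNA, was at 6950, 6898 and 7242 in T47D-VC1 and at 10613, 13226 and 12595 in T47D-PA5 (log2 difference 0.78, SE 0.111, limma adjusted p = 0.0136), and it was called in 2 of the 6 fits that left out an array. Both called genes are on the long arm of chromosome 1, where many genes were higher in T47D-PA5.

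The long arm of chromosome 1 as a whole was higher in T47D-PA5. No tested probe lay between positions 120905040 and 142621453 of chromosome 1 on hg19, the stretch around the centromere, and the genes past it were taken as the long arm, a division made after the values were seen. Of 901 genes tested there, 58 (6.44%) were called higher and 1 lower, against 1.17% called higher among the 18918 other genes. The median log2 difference over the long arm was 0.32, a ratio of 1.25, and 83.0% of its genes were above 0. Over the other genes the median was -0.04 and 43.4% were above 0. The short arm of chromosome 1 did not share the shift, with a median of -0.04 and 14 of 1100 genes called higher. The shift was as large on each slide, with medians of 0.32, 0.31 and 0.31 on slides 1, 2 and 3.

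The shift ran along most of the arm. In 17 windows of 5 Mb with at least 20 tested genes, the median log2 difference was 0.06 to 0.46. In 341 such windows elsewhere in the genome it was -0.20 to 0.11, and 16 of the 17 long-arm windows lay above the highest of these. The medians of the 22 other chromosomes were -0.10 to 0.01. T47D-PA6 lay on the other side of T47D-VC1 here, with a median of -0.21 against T47D-VC1, and the median of T47D-PA5 minus T47D-PA6 was 0.58. The arrays measure RNA, and the number of copies of the arm in each line was not tested. Across the 15 alternatives that changed the values, the median over the arm was 0.13 to 0.34, and the lowest came from keeping dim probes. The count of 58 called genes was less steady, at 9 and 6 without T47D-PA5 replicates 2 and 3, 18 and 10 without T47D-VC1 replicates 2 and 3, and 403 with replicates 2 and 3 alone.

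**Figure D3:**
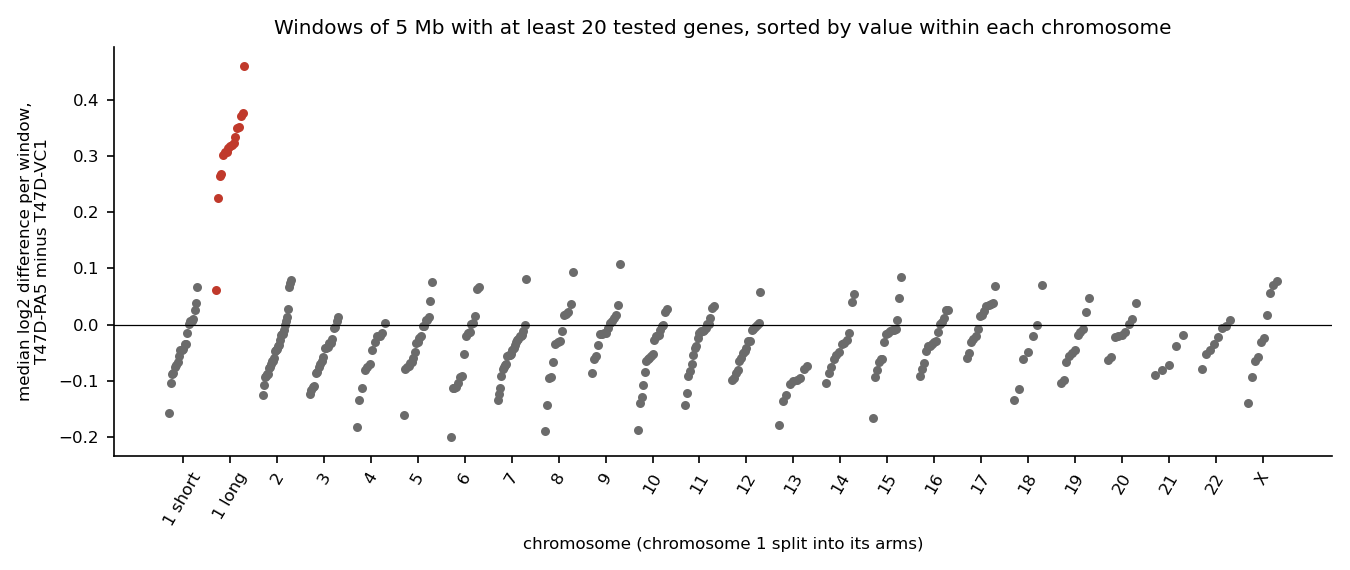
Median log2 difference of T47D-PA5 minus T47D-VC1 in windows of 5 Mb with at least 20 tested genes, sorted by value within each chromosome, with chromosome 1 split into its arms. Windows of the long arm of chromosome 1 (red) reach 0.46, and 16 of 17 lie above all 341 other windows, whose highest is 0.11.

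Most called genes of the arm moved by little, with a median log2 difference of 0.77 among the 58 against 1.4 among the 222 called higher elsewhere. A few stood out from the arm, and the following are named after their values were seen. NMNAT2, an enzyme of NAD synthesis that protects axons, was at 8.98, 6.89 and 13.2 in T47D-VC1 and at 75.7, 50.3 and 43.4 in T47D-PA5 (limma adjusted p = 0.00366). ATP2B4, a calcium pump of the plasma membrane, was at 318, 328 and 294 in T47D-VC1 and at 640, 783 and 792 in T47D-PA5 (limma adjusted p = 0.00217). For NMNAT2 the signal in T47D-VC1 was near the floor of the array, while ATP2B4 was bright in both lines.

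Matrix and mesenchymal genes formed the next largest group of calls, with 5 of 19 tested called higher and 0 lower and a median log2 difference of 0.18. LAMB3, which encodes a laminin chain of epithelial basement membranes and lies on the long arm of chromosome 1, was at 59.8, 123 and 123 in T47D-VC1 and at 251, 430 and 429 in T47D-PA5 (log2 difference 1.90, SE 0.330, limma adjusted p = 0.0299). VIM was called in none of the 6 fits that left out an array, with limma adjusted p up to 0.127, and LAMB3 in 2 of them.

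TWIST1, a transcription factor of the epithelial-mesenchymal transition, was at 281, 296 and 262 in T47D-VC1 and at 816, 1167 and 1010 in T47D-PA5 (log2 difference 1.82, SE 0.142, limma adjusted p = 0.000932). It was called in all 6 fits that left out an array and was also above T47D-PA6 (log2 difference 0.79, limma adjusted p = 0.0127). VIM, the intermediate filament of mesenchymal cells, was not well above background in T47D-VC1, at 5.88, 6.52 and 6.89, and was at 23, 25.9 and 26.4 in T47D-PA5, at least 1.99-fold higher (limma adjusted p = 0.0311). SNAI1, another factor of that transition, was at 698, 371 and 359 in T47D-VC1 and at 540, 483 and 516 in T47D-PA5, which overlap, and it is named after its values were seen. COL18A1, a basement membrane collagen, was also called, with a log2 difference of 1.33. With the replicate block 2 members of the list were called lower. Among 24 keratins and junction genes, 1 was called, CLDN1 of the tight junctions, at 697, 1085 and 1111 in T47D-VC1 and at 4873, 2297 and 2186 in T47D-PA5 (limma adjusted p = 0.0411, or 0.0672 with the replicate block), and it was called in 1 of the 6 fits that left out an array. CLDN1 is the opposite of the effectors in its arrays, since T47D-PA5 replicate 1 was its highest.

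**Figure D4:**
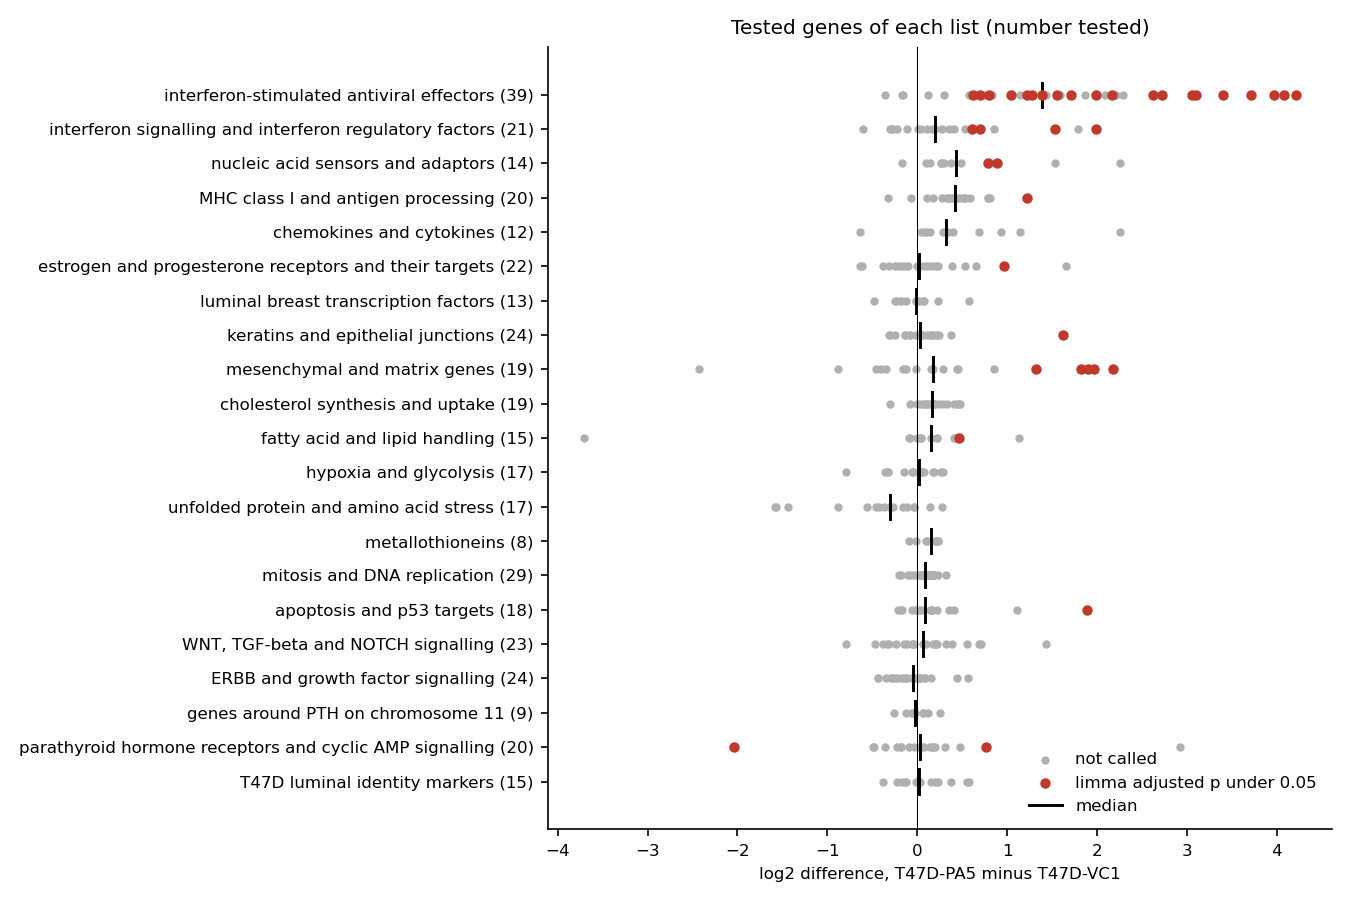
Log2 difference of T47D-PA5 minus T47D-VC1 for every tested gene of the lists with 8 or more tested genes, with called genes in red, other genes in grey and the list's median as a bar. The antiviral effectors have their median at 1.39, and the medians of the other lists shown lie between -0.30 and 0.43.

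Of 22 estrogen and progesterone receptor genes and targets tested, 1 was called higher, RET, a receptor kinase that estrogen induces, at 139, 143 and 116 in T47D-VC1 and at 223, 313 and 244 in T47D-PA5 (log2 difference 0.96, limma adjusted p = 0.0496). RET was called in 0 of the 6 fits that left out an array. The 22 genes had log2 differences of -0.63 to 1.66, with medians of -0.28, 0.15 and 0.12 on slides 1, 2 and 3. Of 13 luminal transcription factors 0 were called. The 2 lists had medians of 0.02 and -0.01.

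Of 20 genes of parathyroid hormone receptors and cyclic AMP signalling, 1 was called higher and 1 lower. PTGER4, a prostaglandin E2 receptor that raises cyclic AMP, fell from 6263, 6553 and 6770 in T47D-VC1 to 1075, 1904 and 1968 in T47D-PA5, a log2 difference of -2.04 (SE 0.211, limma adjusted p = 0.00311), and it was called in all 6 fits that left out an array. Its mean in T47D-PA6 was 1232, which did not differ from T47D-PA5 by the test (limma adjusted p = 0.328). PTHLH, the parathyroid hormone-related protein, was at 15.0, 14.2 and 12.8 in T47D-VC1 and at 19, 26.2 and 26.8 in T47D-PA5 (log2 difference 0.77, limma adjusted p = 0.0424, or 0.0624 with the replicate block), and it was called in 1 of the 6 fits that left out an array. Around PTH on chromosome 11, 9 genes were tested and 0 called, with log2 differences of -0.26 to 0.26 and a median of -0.02.

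Genes of amino acid and unfolded protein stress had the lowest median of the lists shown, -0.30, with 0 of 17 called. ASNS, the asparagine synthetase that amino acid shortage induces, was at 14734, 26131 and 23329 in T47D-VC1 and at 16436, 4473 and 4686 in T47D-PA5. SLC7A11, the cystine transporter, was at 528, 1024 and 1107 in T47D-VC1 and at 546, 194 and 208 in T47D-PA5. In both genes T47D-PA5 was low on slides 2 and 3 and level with T47D-VC1 on slide 1. The limma adjusted p-values over all arrays were 0.146 and 0.140. Among the fits that left out an array they were 0.00529 to 0.402 and 0.0436 to 0.386, and each gene was called in 1 of the 6.

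Cell cycle genes also differed between slides. Of 29 genes of mitosis and DNA replication, 0 were called, and their median log2 difference was 0.61 on slide 1, -0.13 on slide 2 and -0.20 on slide 3. Their median signal was 2187, 2859 and 2946 in T47D-VC1 and 3597, 2620 and 2545 in T47D-PA5. The apoptosis and p53 list had 1 call among 18, CASP1, the inflammatory caspase, which was not well above background in T47D-VC1, at 7.56, 13.6 and 5.85, and was at 29.1, 38.9 and 27.1 in T47D-PA5, at least 2.49-fold higher (limma adjusted p = 0.0214, called in 2 of the 6 fits that left out an array). In the lipid list 1 of 15 was called, ACACA, the first enzyme of fatty acid synthesis, at 7664, 7112 and 7757 in T47D-VC1 and at 10135, 10661 and 10407 in T47D-PA5 (log2 difference 0.47, limma adjusted p = 0.0429, or 0.0547 with the replicate block), and it was called in 0 of the 6 fits that left out an array. The lists of cholesterol synthesis (19 tested), hypoxia and glycolysis (17), metallothioneins (8), WNT, TGF-beta and NOTCH signalling (23) and ERBB and growth factors (24) had 0 called genes in limma, and of these lists none gained a call with the replicate block. Several of them differed between slides. The hypoxia list had medians of -0.65, 0.29 and 0.27 on slides 1, 2 and 3, and the metallothioneins had medians of 1.01, -0.37 and -0.07. Medians were 0.26, -0.11 and -0.17 for the WNT, TGF-beta and NOTCH genes. For the ERBB and growth factor genes they were -0.21, 0.05 and -0.08.

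Against T47D-PA6, 1249 genes (6.3%) were called higher in T47D-PA5 and 656 (3.31%) lower. This comparison uses the same T47D-PA5 arrays as that with T47D-VC1, and genes chosen for high or low values on those arrays are no independent test of it. Of the 24 genes with the largest differences, 18 were called between T47D-PA5 and T47D-PA6. Of the 12 rises, 4 were higher in T47D-PA5 than in T47D-PA6, namely PHYHD1, GAGE1, STC1 and BCHE, and 5 were lower, all of them antiviral effectors.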

How the data were processed

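RNA of 3 stable T47D lines, 3 arrays each, was measured on 1-colour (Cy3) 60-base oligonucleotide arrays. The intensities were read with Agilent Feature Extraction, version 10.7.1.1 per the file headers and 9.5.1.1 per the methods, and the authors quantile-normalized the processed intensities between arrays before they were deposited. These linear values were taken to log2 here. Flags and background came from the scanner files, with probe positions on hg19. A probe was kept if it was well above background on all 3 arrays of T47D-PA5 or of T47D-VC1, which left 25787 probes and 19819 genes, and a gene with several such probes was represented by the one with the highest mean log2 value over the 6 arrays. Of 58201 probes, 31127 matched a RefSeq symbol, 3343 an accession and 496 a synonym, and 23235 kept the name in the files.

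Lines were compared with limma 3.58.1 in R 4.3.3 (lmFit and eBayes on all 9 arrays, line as the term, 6 residual degrees of freedom) with Benjamini-Hochberg adjustment over all genes tested, and a gene was called at an adjusted p under 0.05. The procedure was tested on simulated data with independent noise on each array, so without the differences between slides seen here. Of 40 genes raised by 1, 2 or 4 on the log2 scale, 27, 37 and 40 were called. Of 40 lowered by 1 or 2, 29 and 38 were called, and there were 11 false calls. A gene not well above background on any array of a line has only a bound there, and its fold is given as "at least", from the brighter line's mean over the dim line's mean of, per array, the higher of its own value and the lowest signal well above background. Same-numbered arrays of both lines shared a slide, as inferred from the scan times. The deviations of these arrays from the line means correlated at 0.223, 0.106 and 0.145. The fit was therefore repeated with the replicate number as a block. Exact permutation of 3 arrays against 3 cannot give a two-sided p under 0.1 and was not used. Alternatives covered normalization, background correction, the dim-probe filter, the arrays in the fit, blocks and the methods' t-test.

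The text names the 12 largest rises and falls among called genes whose lines did not overlap and, in each list, up to 4 called genes or, with none called, the 2 largest differences. Some genes that the rule selects are not reported here. Genes outside it are said to be named after their values were seen. The genes, lists and comparisons were chosen with earlier results of these data known.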

Additional observations from a re-analysis of the deposited data

How the results depend on the processing

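None of the 71 genes named by the rule changed direction under the alternatives run. The array number limits all counts, since leaving out 1 array gave 72 to 346 genes higher, 20 to 99 lower, 0 to 30 antiviral effectors, 6 to 61 genes of the long arm of chromosome 1 and 15 to 19 named genes that differed from T47D-PA6. Genes over 2-fold and under 0.6-fold were 395 to 478 and 361 to 453 in these fits. Signals near background limit the large folds, and the causes of the changes below were not tested.

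With the replicate number as a block, which pairs same-slide arrays of T47D-VC1 and T47D-PA5 but places T47D-PA6 replicate 2, from slide 3, with arrays of slide 2, 397 genes were higher and 111 lower, with 23 effectors and 77 long-arm genes. With the slide as a block the counts were 465 and 144, with 92 long-arm genes. Fitting the 6 arrays alone gave 7 effectors, and with the replicate block as well 135 higher, 27 lower, 4 effectors and 14 long-arm genes. Replicates 2 and 3 alone gave 2359 higher, 1993 lower, 35 effectors and 403 long-arm genes, with 339 of the 341 reported genes called again. The methods' t-test gave 1530 higher, 1452 lower, 31 effectors and 354 long-arm genes unadjusted, and 31, 8, 0 and 7 after Benjamini-Hochberg adjustment. With no filter on dim probes there were 156 higher genes, 2 effectors, 34 long-arm genes, 945 genes over 2-fold, 1329 under 0.6-fold and 11 named genes that differed from T47D-PA6. Keeping only probes well above background on all 6 arrays gave 40 lower genes, 237 over 2-fold, 162 under 0.6-fold and 4 named genes that differed from T47D-PA6. Normexp background correction gave 99 long-arm genes, 134 over 2-fold, 82 under 0.6-fold and 4422 genes with a line by run difference, against 2938 reported. An intensity trend in the prior variance gave 102 long-arm genes. The replicate block ended 5 of the calls among 71 named genes and added 1.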

Other observations

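Imprinted genes and cancer-testis genes had both rises and falls in T47D-PA5. Both lists were drawn up after the values were seen, and MKRN3, GAGE1 and MAGEA8 on them are among the largest differences above. The counts are therefore no test of either family. Of 32 imprinted genes listed, 20 were tested, with a median log2 difference of 0.25. Of the 20, 4 were called higher and 1 lower, against 1.41% and 0.308% of all genes tested. IGF2, a fetal growth factor, was at 257, 330 and 293 in T47D-VC1 and at 1335, 969 and 980 in T47D-PA5 (log2 difference 1.89, SE 0.167, limma adjusted p = 0.00195). H19, its imprinted neighbour, was at 86.7, 161 and 151 and at 148, 243 and 218, which overlap. PEG10, a gene derived from a retrotransposon, was at 3991, 5022 and 4958 in T47D-VC1 and at 12686, 19100 and 18817 in T47D-PA5 (log2 difference 1.84, limma adjusted p = 0.0142), while SGCE, the gene beside it, had a log2 difference of 0.25 and was not called. ZDBF2 rose by 1.86 and PHLDA2 by 0.71 on the log2 scale, and MKRN3 fell by 3.68.

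Of 47 cancer-testis genes listed, 17 were tested. Of the 17, 4 were called higher and 3 lower, against 1.41% and 0.308% of all genes tested. GAGE12F was at 38206, 43981 and 43689 in T47D-VC1 and at 90738, 92300 and 96278 in T47D-PA5, a log2 difference of 1.15 (limma adjusted p = 0.00133), and the probe may read several GAGE copies. BAGE rose by 2.20, VCX2 by 1.32 and GAGE1 as given above. MAGEA1 was at 291, 469 and 424 in T47D-VC1 and at 127, 101 and 119 in T47D-PA5 (log2 difference -1.75, limma adjusted p = 0.00311). COX7B2, a testis form of a respiratory chain subunit, was at 373, 332 and 309 in T47D-VC1 and at 48.9, 104 and 118 in T47D-PA5 (limma adjusted p = 0.0167), and MAGEA8 was the third called lower. MAGEA6 was at 12.5, 32.2 and 46.0 in T47D-VC1 and at 71.1, 137 and 152 in T47D-PA5, higher without overlap but not called (limma adjusted p = 0.105, or 0.00323 with the replicate block). PRAME was at 1389, 1378 and 1464 and at 1191, 1501 and 1400, which overlap.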
